A study of Homo sapiens with 4 samples.

Results

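Transcripts of 10 transcription factors of blood progenitor cells, MYB, RUNX1, IKZF1 (Ikaros), ELF1, MECOM, ETV6, ERG, FLI1, LYL1 and CBFA2T3, are described here in K562 cells given clofarabine or DMSO. They are 10 of the 23615 genes in the deposited table. The members were chosen by gene name with their clofarabine and DMSO fragment counts already known, so their differences between the groups are given as a description and support nothing further. Each group held 2 samples. Clofarabine samples were K562 cells given 5 µM clofarabine in 0.005% DMSO, and DMSO samples were K562 cells given DMSO alone, all at 3 h. K562 is an established leukaemia line that carries the BCR-ABL1 fusion and lacks working p53 in both groups, so all values come from a single cancer line and not from normal progenitors. The table names the groups C and V, read here as clofarabine and vehicle, and every direction would turn round under the other reading. Its libraries are called C0 and C1 for clofarabine and V0 and V1 for DMSO.

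These factors act together in stem and progenitor cells. MYB is a DNA-binding activator that keeps progenitors dividing and usually declines as they mature. RUNX1 binds DNA with its partner CBFB and is needed for the first definitive blood stem cells and later for megakaryocytes and lymphocytes. Ikaros is a zinc finger factor that brings the NuRD chromatin remodelling complex to lymphoid and progenitor genes. ELF1, ETV6, ERG and FLI1 belong to the ETS family, whose members share a DNA-binding domain that reads a GGAA core. LYL1 is a basic helix-loop-helix factor related to TAL1, CBFA2T3 (ETO2) is a corepressor in TAL1 and GATA1 complexes, and MECOM encodes the zinc finger protein EVI1. Several of them, RUNX1, ETV6 and MECOM among them, are known for fusions or overexpression in leukaemia.

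Clofarabine libraries totalled 13175630 (C0) and 23888755 (C1) fragments, against 8370550 (V0) and 11119379 (V1) for DMSO. All 12 erythroid markers of the line were detected, at a summed 25900 to 30300 CPM (counts per library total after TMM scaling, in the usual CPM unit) in clofarabine and 26600 to 28300 CPM in DMSO. Lymphoid markers summed to 18.8 to 23.5 CPM in clofarabine and 18.6 to 20.7 CPM in DMSO, mostly CD3D, with CD2, CD79B and MS4A1 at 0. Monocyte and granulocyte markers summed to 6.10 to 6.45 CPM in clofarabine and 5.62 to 7.30 CPM in DMSO, with FCN1 and ELANE at 0. Fibroblast and endothelial markers summed to 13.7 to 14.5 CPM in clofarabine and 17.7 to 18.6 CPM in DMSO, mostly COL1A2, with LUM, CDH5 and KDR at 0. Their part in the results below was not tested. Separate cultures are not stated in the labels. The p-values therefore rest on the spread among these 4 libraries, part or all of which may be technical.

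Transcripts of the 9 detected factors were all lower on average in clofarabine than in DMSO. MYB stood furthest below its DMSO level among the well-covered members, at 0.637 times that level. IKZF1, MECOM, RUNX1 and ELF1 stood at 0.758, 0.761, 0.793 and 0.807 times, LYL1 and CBFA2T3 at 0.873 and 0.851 times, while the values of ETV6 and FLI1 depended on which DMSO library was used. ERG was listed at 0 in every library. In the edgeR test over the whole table, 5 of the 9 tested members were called as lower (MYB, RUNX1, IKZF1, ELF1 and MECOM) and 0 as higher, where 1.03% of the 11761 tested genes were called as lower, 1.54% as higher and 2.57% in either direction. Because the contrast helped to choose the members, nothing is read from that share. In these bulk samples, fewer cells that express a factor and less of its RNA per cell cannot be told apart.

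MYB was measured at 61.6 and 59.2 CPM in the clofarabine libraries, against 99.6 and 90.2 CPM in the DMSO libraries. The groups did not overlap, and the gap between them was larger than the distance between libraries of either group. The log2 fold change was −0.65 (SE 0.081). It placed MYB at rank 209 from the lowest among the 11761 tested genes, and it stayed between −0.73 and −0.58 with each library left out in turn. MYB was called under each of the 14 refits by other scaling, filter, tool or choice of libraries.

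RUNX1 stood at 57.0 and 48.9 CPM in clofarabine, against 66.1 and 66.6 CPM in DMSO. The DMSO libraries lay almost on the same value, while the clofarabine libraries were apart, with C1 the lower. The log2 fold change was −0.33 (SE 0.090), but it was −0.22 without C1 and −0.44 without C0, so its size depended on which clofarabine library was used. RUNX1 was called without C0 and no longer without C1, V0 or V1, nor by DESeq2 or with upper-quartile scaling. RUNX1-IT1, an RNA from within a RUNX1 intron that could share fragments with it, had 0 and 0 fragments in clofarabine and 3 and 1 in DMSO.

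IKZF1 had 75.2 and 65.4 CPM in clofarabine, against 95.6 and 89.3 CPM in DMSO. C1 was again the lowest library, and the groups did not overlap. The log2 fold change was −0.40 (SE 0.084), at −0.50 without C0 and −0.30 without C1. IKZF1 was also called by DESeq2 and without C0 or V1, and was not called without C1 or V0.

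Among the ETS factors, ELF1, an activator of blood cell genes, had 69.3 CPM in each clofarabine library, against 84.5 and 87.1 CPM in DMSO (log2 fold change −0.31, SE 0.078). This was the tightest pair of clofarabine values among the 9 tested members. ETV6, a repressor that adult blood stem cells need, stood at 8.52 and 8.74 CPM in clofarabine, against 12.2 and 7.58 CPM in DMSO. Its groups overlapped, because V1 lay below both clofarabine libraries, and its log2 fold change of −0.17 (SE 0.21) became 0.19 without V0 and −0.51 without V1. The exact 95% Poisson intervals of the DMSO libraries did not overlap, at 10.0 to 14.8 CPM in V0 and 6.06 to 9.38 CPM in V1, so they differed beyond counting error.

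FLI1, which drives megakaryocyte genes, was at the edge of detection. It had 19 and 38 fragments in clofarabine (1.43 and 1.64 CPM), against 14 and 45 in DMSO (1.65 and 4.01 CPM). C1 and V0 were equal within counting error, and V1 stood above the other 3 libraries beyond it. The exact 95% Poisson interval was 1.16 to 2.26 CPM in C1, 0.901 to 2.77 CPM in V0 and 2.93 to 5.37 CPM in V1, which covers counting error only. The fitted log2 fold change of −0.90 (SE 0.43) rested on V1, and it was −0.096 without that library. FLI1-AS1, which lies opposite FLI1, had 1 and 4 fragments in clofarabine and 2 and 2 in DMSO.

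ERG, the closest relative of FLI1, was listed at 0 fragments in all 4 libraries. A floor of 3 fragments per library corresponds to 0.228 and 0.126 CPM in clofarabine and 0.358 and 0.270 CPM in DMSO, again for counting error only. A listing near 0 in this table is not proof of a silent gene. CTBP2, a corepressor found in most cells, was listed with 2 and 14 fragments in clofarabine and 4 and 1 in DMSO. Whether these cells express CTBP2 was not measured in another way, so it is an example and no test.

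MECOM had 31.7 and 30.3 CPM in clofarabine, against 41.0 and 40.4 CPM in DMSO. Libraries within each group lay close together and the groups were well apart (log2 fold change −0.39, SE 0.10). LYL1 had 86.7 and 87.1 CPM in clofarabine, against 97.4 and 102.0 CPM in DMSO (log2 fold change −0.20, SE 0.075). CBFA2T3 had 49.0 and 49.5 CPM in clofarabine, against 56.9 and 58.9 CPM in DMSO (log2 fold change −0.23, SE 0.086). LYL1 and CBFA2T3 were thus lower in both clofarabine libraries by a small and even step, were not called, and kept their direction in every one of the 14 refits.

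Both clofarabine libraries lay below both DMSO libraries in 8 of the 9 tested members, in FLI1 only by the margin between 1.64 and 1.65 CPM, where 21.3% of all tested genes did so. The number of members called depended on the libraries: it was 5 without C0, 1 without C1 (MYB), 1 without V0 (MYB) and 2 without V1 (MYB and IKZF1). DESeq2 also called 2 (MYB and IKZF1), and limma on the log2(FPKM + 1) scale called 1 (MYB). Over the 14 refits the log2 fold change ran from −0.35 to −0.29 for ELF1, from −0.43 to −0.31 for MECOM, from −0.50 to −0.30 for IKZF1 and from −0.44 to −0.22 for RUNX1. It ran from −1.37 to −0.096 for FLI1 and from −0.51 to 0.19 for ETV6, neither of which was called in any refit.

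**Figure D1:**
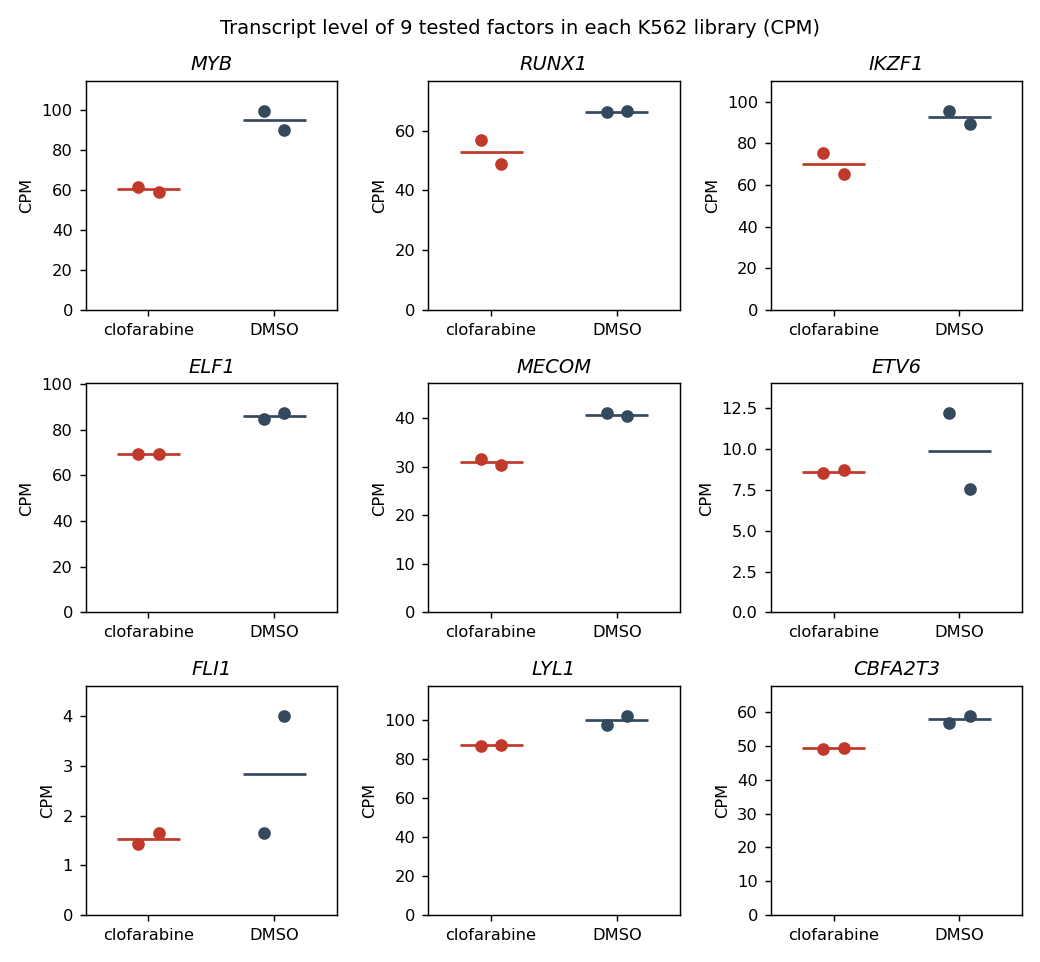
Transcript level in CPM (vertical axis from 0) for each of the 9 tested factors, with 1 point per library, clofarabine left and DMSO right, and a line at the mean of each pair. Points separate by group in MYB, RUNX1, IKZF1, ELF1, MECOM, LYL1 and CBFA2T3, overlap in ETV6, and in FLI1 a single DMSO library at 4.01 CPM stands apart.

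**Figure D2:**
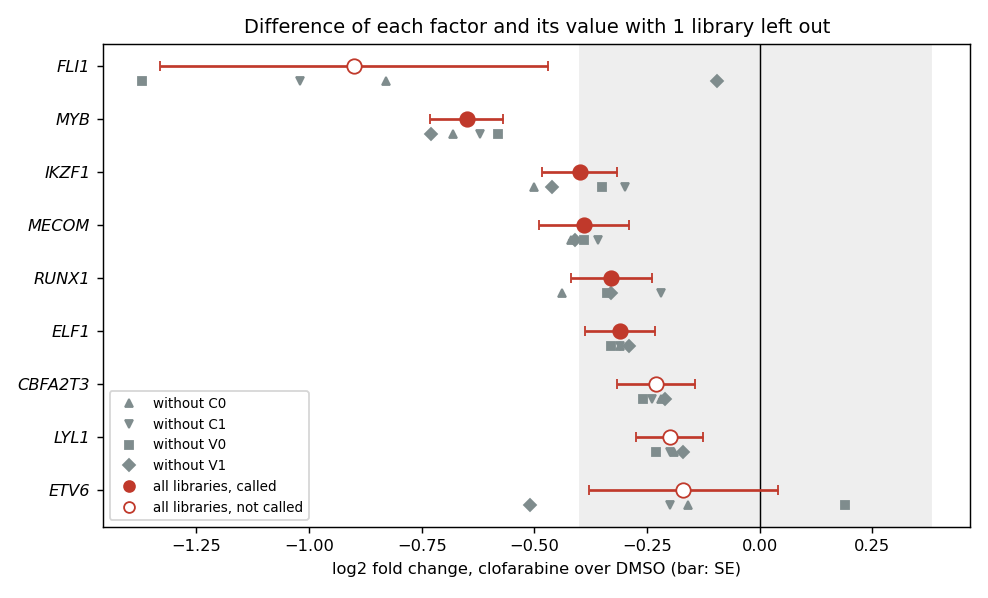
Log2 fold change, clofarabine over DMSO (horizontal axis), for each tested factor, with its SE as a bar, filled where called over all genes, and grey marks for the value without each library. The grey band spans the 5th to 95th percentile of all tested genes, −0.40 to 0.38. MYB stays left of the band throughout, while FLI1 and ETV6 swing with the DMSO libraries.

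The levels of the factors were compared per transcript length, as the authors' FPKM. These are fragments per kilobase of transcript, with Cuffdiff's own library scaling and length estimates in place of the TMM scaling of CPM. LYL1 was the most abundant member, at 53.3 and 53.4 FPKM in clofarabine and 59.9 and 62.3 FPKM in DMSO. MYB followed at 19.0 and 18.3 FPKM in clofarabine and 30.9 and 27.6 FPKM in DMSO, then ELF1 at 19.1 and 19.5 FPKM in clofarabine and 23.8 and 24.0 FPKM in DMSO. Both MYB libraries were above both ELF1 libraries in DMSO, and the order was turned round in clofarabine, where both ELF1 libraries were above both MYB libraries by a small margin. IKZF1 (mean 11.6 FPKM in clofarabine and 15.3 in DMSO), CBFA2T3 (11.7 and 13.8 FPKM) and RUNX1 (9.59 and 11.5 FPKM) formed a middle group. IKZF1 and CBFA2T3 overlapped in clofarabine but not in DMSO, and CBFA2T3 and RUNX1 were apart within each treatment. MECOM (6.32 FPKM in clofarabine and 8.07 in DMSO) and ETV6 (1.45 and 1.67 FPKM) came next, each below the lowest library of the factor before it, and FLI1 reached at most 1.16 FPKM in any library.

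RUNX1, IKZF1, CBFA2T3, MECOM and LYL1 were each the most abundant gene of the family they were set in. RUNX1 made up 98.9 to 99.8% of the summed FPKM of RUNX1, RUNX2 and RUNX3 in every library. CBFA2T3 held 86.6 and 86.3% of the ETO family sum (with CBFA2T2 and RUNX1T1) in clofarabine and 84.5 and 85.9% in DMSO. IKZF1 held 52.1 and 52.7% of the Ikaros family sum in clofarabine and 59.8 and 59.6% in DMSO, with IKZF5 and IKZF4 as the next members at 5.71 and 4.57 FPKM in clofarabine and 5.22 and 4.92 FPKM in DMSO. PRDM16, the relative of MECOM, was listed at 0 throughout, and LYL1 was above TAL1, which averaged 37.4 FPKM in clofarabine and 37.7 in DMSO.

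MYB was not the leading gene of its family. MYBL2, the family member tied to the cell cycle, stood at 118.0 and 131.0 FPKM in clofarabine and 116.0 and 119.0 FPKM in DMSO, so that MYB was 13.8 and 12.3% of the family sum in clofarabine and 21.0 and 18.8% in DMSO. The difference for MYBL2 itself was 0.084 on the log2 scale (SE 0.068, edgeR adjusted p = 0.654). Of the 27 ETS genes examined, ELF1 ranked 4th by mean FPKM in clofarabine (after ELK1, ERF and ELF4) and 2nd in DMSO (after ELK1). ETV6 ranked 16th in both groups, and FLI1 ranked 20th in clofarabine and 18th in DMSO. ERG and SPIC were the ETS genes at 0 in every library.

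**Figure D3:**
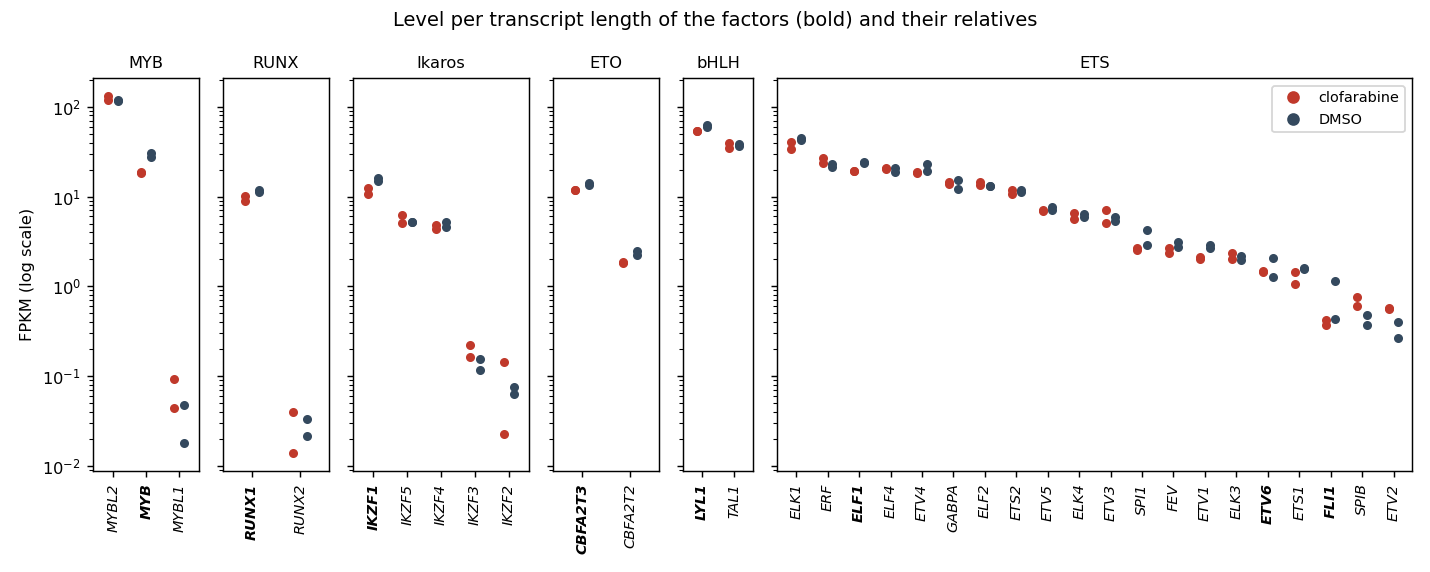
FPKM per library on a log axis for the factors (bold) and their relatives, clofarabine points left of DMSO points within each gene. Genes at 0 in any library are left out, and MECOM and its relative PRDM16 are not drawn. RUNX1 stands far above RUNX2, and MYB lies below MYBL2. The ETS genes run from ELK1 at 37.0 FPKM in clofarabine and 44.1 in DMSO down to values under 1 in every library for SPIB and ETV2.

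Dividing the authors' scaled fragments by FPKM gives the mean transcript length that their isoform estimates imply for a gene in each library. This measure did not enter the choice of members. For LYL1 and ETV6 it moved by only 0.000293 and 0.000657 percentage points of its own mean over the 4 libraries, and for MYB and IKZF1 it moved by 0.774 and 0.723 points. RUNX1 differed: its implied length was 98.7 and 96.9% of its mean in clofarabine, against 98.4 and 106.0% in DMSO. The range of 9.18 points came from V1 alone, and V0 lay with the clofarabine libraries. Among 9308 genes with at least 50 fragments in each library, 2.84% had a larger range and 6.38% one of over 5 points. The FPKM of RUNX1 was 11.1 in V1 and 11.9 in V0, although their CPM were alike, and its difference on the log2(FPKM + 1) scale was −0.24. MECOM had 97.4 and 99.8% in clofarabine, against 101.6 and 101.1% in DMSO.

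The members are mostly long genes, a property that the rule did not use. In GENCODE release 29 (GRCh38), RUNX1 spans 1220.0 kb, MECOM 580.0 kb and ETV6 246.0 kb, which put them in the longest of 10 equal classes of the 10820 tested genes with a span. IKZF1 (101.0 kb), ELF1 (129.0 kb), FLI1 (127.0 kb) and CBFA2T3 (102.0 kb) fell in the next class, while MYB (37.9 kb) was in the 6th and LYL1 (4.13 kb) in the shortest. Over all genes, the median log2 fold change was −0.049 in the longest class, −0.0059 in the next and 0.012 in the shortest. In these classes of 1082 genes, 9, 9 and 15 genes (0.832%, 0.832% and 1.39%) were called as lower. Against these, 5, 3 and 33 genes were called as higher. Lower calls outnumbered higher ones in the long classes but not in the shortest. The share of lower calls in the long classes was still below the 1.03% over all tested genes. In the 6th class the median was 0.014, with 10 genes called as lower and 10 as higher. Within the longest class the members stood at −0.33 (RUNX1), −0.39 (MECOM) and −0.17 (ETV6) on the log2 scale. MYB stood at −0.65 in the 6th class and LYL1 at −0.20 in the shortest. The part of gene span in these differences was not tested.

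Upstream sequences are shown for MYB, RUNX1 and MECOM, the called members whose most upstream listed start had a window free of the gene's own exons. A single start was listed for MYB and for RUNX1. Any RUNX1 start further upstream within its span of 1220.0 kb is therefore not covered, and its window need not be the most upstream promoter. For IKZF1 and ELF1 such windows belonged only to starts further downstream and are not shown. The sequences are the 250 bases before that start in RefSeq (GRCh38.p14, a later build than the hg19 of the counts), and exons were those of GENCODE release 29. Upstream sequence was given for 9 of the 10 members and not for FLI1. Capitals mark matches on either strand to the motifs searched, and no matches overlapped in these windows.
MYB, chr6:135181058-135181307, plus strand: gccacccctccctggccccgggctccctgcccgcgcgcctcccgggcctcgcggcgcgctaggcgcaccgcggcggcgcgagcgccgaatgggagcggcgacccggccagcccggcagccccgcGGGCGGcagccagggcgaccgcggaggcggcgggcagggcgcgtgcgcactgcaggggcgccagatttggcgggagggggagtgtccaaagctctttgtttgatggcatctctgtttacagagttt
RUNX1, chr21:34888700-34888949, minus strand: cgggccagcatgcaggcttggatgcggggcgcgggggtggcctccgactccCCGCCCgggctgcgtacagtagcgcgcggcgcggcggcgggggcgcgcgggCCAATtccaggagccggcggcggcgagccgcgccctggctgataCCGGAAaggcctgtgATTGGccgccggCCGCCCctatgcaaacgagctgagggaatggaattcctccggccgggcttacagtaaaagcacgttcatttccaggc
MECOM, chr3:169663713-169663962, minus strand: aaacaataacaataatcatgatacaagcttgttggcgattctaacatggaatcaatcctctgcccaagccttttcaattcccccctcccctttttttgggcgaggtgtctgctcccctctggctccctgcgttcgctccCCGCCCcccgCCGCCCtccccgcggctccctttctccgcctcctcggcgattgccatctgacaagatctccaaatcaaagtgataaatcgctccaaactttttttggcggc

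GC content was 75.6% at MYB and 71.2% at RUNX1, above the median of 58.0% over the 35116 upstream windows of the same length, and 53.6% at MECOM. The letters of the GC-box, GGGCGG, were found once at MYB, at 2 positions at RUNX1 and at 2 at MECOM, and in 42.6% of all windows. The RUNX1 window also held the ETS letters CCGGAA, 104 bases before the start, and 2 CCAAT boxes (CCAAT), which 14.5% and 32.0% of all windows held. None of these 3 windows held the RUNX letters TGTGGT (in 3855 of the 35116 windows), the MYB letters AACNGNC (in 26.9%) or the GATA letters AGATAA (in 9.17%). Variant letters of these sites were not searched, so the windows may hold other forms of them. A match is a run of letters and no measured binding, and which start K562 cells used was not measured.

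Genes tied to the members were then examined in lists of relatives, partners and targets. Over all 11761 tested genes, 2.57% were called, 1.03% as lower and 1.54% as higher. The lists were chosen with earlier results of these data known, so their counts are a description and nothing is read from their shares. Of 18 relatives and cofactors of MYB and RUNX1, 14 were tested. By edgeR 0 were called, 0 had an unadjusted p under 0.05 and 0 were called by DESeq2, with a median log2 fold change of −0.066, where the median of all tested genes was 0.0020. CBFB, the partner of RUNX1 on DNA, was measured at 201.0 and 196.0 CPM in clofarabine, against 204.0 and 199.0 CPM in DMSO (log2 fold change −0.023, SE 0.065, edgeR adjusted p = 0.929). The MYB coactivators CREBBP (−0.039, SE 0.094) and EP300 (−0.11, SE 0.089) were not called either, and the member of smallest p was PRMT6, an arginine methyltransferase that acts with RUNX1 (−0.13, SE 0.068, edgeR adjusted p = 0.421). CBFB, CREBBP and EP300 were picked out with their values known.

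Of 20 Ikaros relatives and NuRD subunits, 18 were tested: 1 fell (5.56% of those tested), 0 rose and 17 were not called. By edgeR 4 of them, the 1 called included, had an unadjusted p under 0.05. The median log2 fold change was 0.021. The fall was GATAD2B, a NuRD scaffold subunit, at 40.8 and 42.6 CPM in clofarabine, against 57.1 and 56.1 CPM in DMSO (log2 fold change −0.44, SE 0.089, edgeR adjusted p = 0.00685). Its groups were far apart relative to their spread, and its call was lost only on the log2(FPKM + 1) and log2(FPKM + 0.1) scales (limma adjusted p = 0.209 and 0.197) among the 14 refits. Its paralog GATAD2A, also picked out with its value known, had 191.0 and 190.0 CPM in clofarabine and 191.0 and 190.0 CPM in DMSO.

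Of 23 ETS genes other than the members, 16 were tested, of which 0 were called by edgeR and by DESeq2, and 2 had an unadjusted p under 0.05. Their median log2 fold change was −0.0013, with 8 negative and 8 positive. ELK1, a target of ERK signalling, had the smallest p, at 92.9 and 104.0 CPM in clofarabine, against 115.0 and 121.0 CPM in DMSO (log2 fold change −0.26, SE 0.077, edgeR adjusted p = 0.0792). Its value was −0.35 and called without C1 (edgeR adjusted p = 0.00553), and −0.18 without C0.

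Of 30 progenitor factors and partners of the ETO complexes, 23 were tested: 2 fell (8.7% of those tested), 0 rose and 21 were not called. By edgeR 7 of them, the 2 called included, had an unadjusted p under 0.05. The median log2 fold change was −0.11, with 20 negative values. IRF2BP2, a corepressor that joins ETO2 complexes, had 51.7 and 50.8 CPM in clofarabine, against 63.3 and 67.4 CPM in DMSO (log2 fold change −0.35, SE 0.084, edgeR adjusted p = 0.0250). GATA1, the master factor of the erythroid lineage, had 180.0 and 197.0 CPM in clofarabine, against 227.0 and 222.0 CPM in DMSO (log2 fold change −0.25, SE 0.067, edgeR adjusted p = 0.0445). The other core partners were not called, among them TAL1 (−0.012, SE 0.071, edgeR adjusted p = 0.971) and LMO2 (−0.031, SE 0.083, edgeR adjusted p = 0.923), both picked out with their values known. IRF2BP2 lost its call without V1 (edgeR adjusted p = 0.337) and by DESeq2 (adjusted p = 0.0903), and GATA1 without C0, V0 or V1 (edgeR adjusted p = 0.112, 0.226 and 0.263) by DESeq2 (adjusted p = 0.0632) and with upper-quartile scaling (edgeR adjusted p = 0.0658).

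Of 24 target genes known from other work, 17 were tested: 3 fell (17.6% of those tested), 0 rose and 14 were not called. By edgeR 4 of them, the 3 called included, had an unadjusted p under 0.05. The median log2 fold change was −0.056. MYC, a target of MYB and of several of these factors, had 195.0 and 187.0 CPM in clofarabine, against 292.0 and 298.0 CPM in DMSO (log2 fold change −0.63, SE 0.065, edgeR adjusted p = 1.9e-06). NFE2, a target of RUNX1 in megakaryocytes and erythroid cells, had 165.0 and 173.0 CPM in clofarabine, against 216.0 and 222.0 CPM in DMSO (log2 fold change −0.37, SE 0.066, edgeR adjusted p = 0.00196). PIM1, a survival kinase, had 342.0 and 362.0 CPM in clofarabine, against 421.0 and 425.0 CPM in DMSO (log2 fold change −0.26, SE 0.065, edgeR adjusted p = 0.0296). In all 3 genes the groups were apart, but the NFE2 call was lost on the log2(FPKM + 1) scale (limma adjusted p = 0.0504) and the PIM1 call without V0 (edgeR adjusted p = 0.155) and V1 (edgeR adjusted p = 0.326). On both FPKM scales IRF2BP2, GATA1 and PIM1 were not called (limma adjusted p = 0.147 to 0.203). Classical targets such as KIT, CD34, GP9 and PF4 had under 1 CPM in every library and were not tested.

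**Figure D4:**
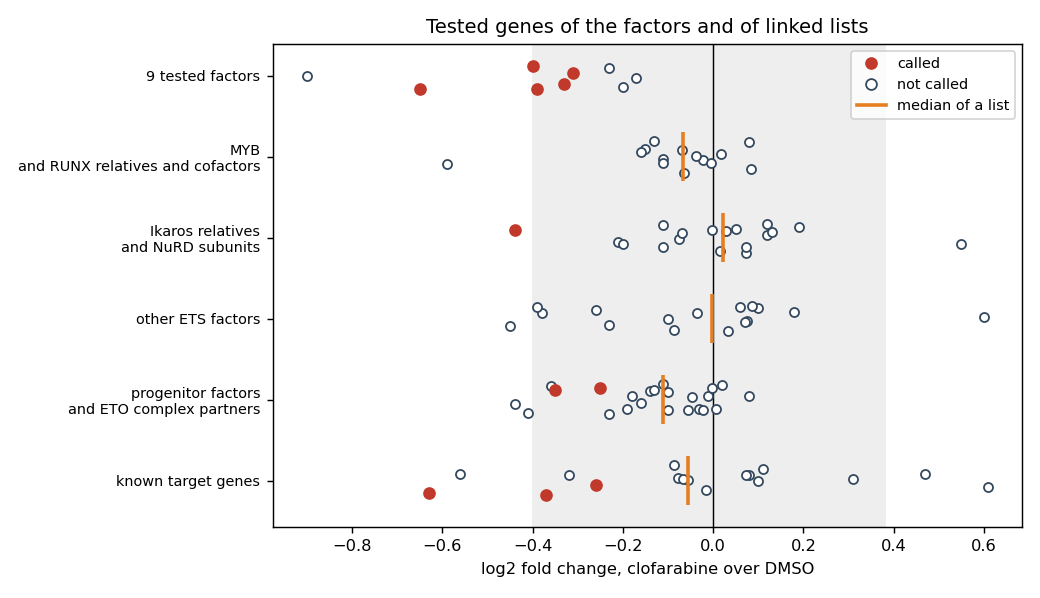
Log2 fold change, clofarabine over DMSO (horizontal axis), of each tested gene in the 9 tested factors and the 5 linked lists, filled where called over all genes, with an orange line at each list's median and a grey band from the 5th to the 95th percentile of all tested genes. The 9 factors, chosen with these values known, all lie left of 0. List medians are −0.066 for MYB and RUNX relatives, 0.021 for the NuRD list and −0.0013 for the ETS relatives. For progenitor factors and ETO partners the median is −0.11, and for target genes −0.056.

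The genes whose profile over the 4 libraries was nearest to MYB, RUNX1 and IKZF1 were found among 8481 genes with a mean of at least 10 CPM, by the Euclidean distance of log2 CPM centred on each gene's mean. Nearest to MYB were CDCA3 (distance 0.0366), KPNA2 (0.0802) and ARHGAP11A (0.0872), where the median gene lay at 0.680. Nearest to RUNX1 were CHST3 (0.0158), FAM135A (0.0474) and FLJ45340 (0.0489), with a median distance of 0.401. Nearest to IKZF1 were ARHGAP19 (0.0249), FRMD4A (0.0467) and HERC2P2 (0.0481), with a median distance of 0.458. All 4 libraries of the contrast entered these distances, which are a description.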

How the data were processed

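RNA-seq of K562 cells was analysed from 1 deposited table with 2 clofarabine and 2 DMSO libraries. The submitters' processing notes name cutadapt 1.5, TopHat2 2.0.13, Cuffdiff 2.2.1 and build hg19. In the sources used here the annotation and strand setting are not given, and fragments of overlapping or antisense genes may have been shared. The deposited values used are the authors' estimated counts of fragments per gene, their scaled fragments (a signal, the estimated count times 1 factor per library) and their FPKM.

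Estimated counts were rounded to whole numbers. Genes passing filterByExpr (11761, minimum count 10) were scaled by TMM (factors 0.968 to 1.02) and tested by edgeR 4.0.16 (R 4.3.3, quasi-likelihood, group as the only term), with Benjamini-Hochberg adjustment over all tested genes and calls at an adjusted p under 0.05. SE is the log2 fold change over the square root of F. The common biological coefficient of variation was 6.01%. The script was tested on simulated data. Alternatives were DESeq2 1.42.0, limma 3.58.1 on log2(FPKM + 1) and log2(FPKM + 0.1), other scalings and filters, removal of a trend on transcript length (loess, span 0.3), each library left out, a replicate block and thresholds of 0.01 and 0.1.

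Libraries of a group differed by more than sampling noise and were kept apart. Chi-square over its degrees of freedom was 6.55 between C0 and C1 and 2.73 between V0 and V1. Between C0 and V0, of different groups, it was 4.08. This measure also grows with library depth. Library numbers in the table could not be tied to replicate numbers in the labels. Members and lists were chosen with earlier results of these data known. All members are named, with up to 4 called genes per direction of each list, or the gene of smallest p where none was called. KMT2A was found under its older symbol.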

Additional observations from a re-analysis of the deposited data

How the results depend on the processing

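Of 302 genes called, the number was 168 with DESeq2, 72 on log2(FPKM + 0.1), 56 on log2(FPKM + 1), 478 with no filter, 481 once a trend on length was removed, 466 and 128 at thresholds of 0.1 and 0.01, and 130 (without V1) to 636 (without C0) with a library left out. Library size alone gave 170 higher and 200 lower calls, in place of 181 and 121, and log2(FPKM + 1) gave 19 and 37. Of 5 members called, 2 were called by DESeq2 and at 0.01, 3 with upper-quartile scaling, 1 on each FPKM scale, and 1 to 5 with a library left out.

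Among the lists, the NuRD count of 1 was 0 on both FPKM scales and 1 to 2 with a library left out. The ETS count of 0 was 1 without the length trend, with library size alone, with no filter and at 0.1, and 0 to 1 with a library left out. The count of 2 progenitor factors and partners was 0 with DESeq2, on both FPKM scales and at 0.01, 1 with upper-quartile scaling, and 0 to 2 with a library left out. The count of 3 targets was 1 on log2(FPKM + 1), and 2 to 3 with a library left out. The list of MYB and RUNX relatives had 0 calls under all alternatives.

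With the table's replicate number as a replicate block, 796 genes, 5 members, 2 NuRD genes, 1 ETS gene and 4 progenitor factors were called. Over all tested genes, C0 and V0 did not deviate together from the means of their groups (correlation −0.00383). That value cannot exclude a shared culture or batch that acts on some genes, so whether same-numbered libraries are paired is not known. Of the members, ETV6 alone changed direction, at 0.19 without V0, within −0.51 to 0.19 over the libraries left out. Of the 7 genes picked out with their values known, whose refits were added after seeing the data, the log2 fold change of TAL1 was 0.010 without the length trend, 0.023 without V0 and 0.073 without C1, against −0.097 without C0. That of CREBBP was 0.014 without C1 and −0.088 without C0, that of LMO2 0.010 without C0 and −0.082 without C1, and that of GATAD2A 0.024 without the length trend. None of these genes was called in any refit, and the causes of these shifts were not tested. DESeq2 gave no adjusted p for ETV6 and FLI1, and ERG could not be tested.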
